A study of Rattus norvegicus with 19 samples.

Results

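The cytochrome P450 genes of families 1 to 3 were taken by name from a liver array study of rat diets. A probe belonged to the set where the gene name in the files, or the current symbol found by accession or synonym, began with Cyp, then 1, 2 or 3, then a letter. This gave 46 of 41012 non-control probes, for 38 genes. Of these, 41 probes for 35 genes were well above background often enough to be tested, among 22020 tested features (12292 of them with a gene name).

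P450 enzymes are heme proteins of the endoplasmic reticulum that add an oxygen atom to a substrate, with electrons from P450 reductase or cytochrome b5. Families 1 to 3 clear drugs, plant compounds and other foreign chemicals, and also act on steroids, fatty acids, ketones and vitamins. In the liver most are made by hepatocytes, many of them mainly around the central vein. Their genes are known targets of the receptors AHR (family 1), CAR (Cyp2b and Cyp2c) and PXR (Cyp3a), and in the rat several depend on the sex-specific rhythm of growth hormone.

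All 19 animals were single-housed male Wistar rats, aged 8 weeks at the start, fed 1 of 3 diets for the next 4 months and killed in the fed state. Of their energy, 7 control rats took 70% from carbohydrate, 10% from fat and 20% from protein. The 6 rats of the high protein (HP) group took 45%, 10% and 45%, with casein as the main protein, and the 6 rats of the high fat (HF) group took 20%, 60% and 20%. Fat and carbohydrate therefore changed together in HF, and protein and carbohydrate in HP. The 2-colour Agilent arrays compared each rat's liver RNA (Cy5) with a pool of the livers (Cy3), with no dye swap, and every level below is the log2 ratio of the rat to the pool. A level of 0 equals the pool, and levels of different genes are not comparable.

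The results turn on Cyp2e1 and Cyp1a2, which rose with the high fat diet, and the neighbours Cyp3a2 and Cyp3a23-3a1, which moved in opposite directions. The Cyp3a23-3a1 call was lost in 17 of 31 other settings or omissions of 1 rat. The 4 stretches of sequence printed next lie just before the annotated starts of these genes. They come from RefSeq (build GRCr8), read 5′ to 3′ on the strand of the gene, and stop at or before the base next to the annotated gene. Capitals mark AGGTCA, the half-site of many nuclear receptors, CAAAGTCCA, a site typical of the liver factor HNF4A, and TATAAA, the TATA box, each on either strand.
Cyp2e1: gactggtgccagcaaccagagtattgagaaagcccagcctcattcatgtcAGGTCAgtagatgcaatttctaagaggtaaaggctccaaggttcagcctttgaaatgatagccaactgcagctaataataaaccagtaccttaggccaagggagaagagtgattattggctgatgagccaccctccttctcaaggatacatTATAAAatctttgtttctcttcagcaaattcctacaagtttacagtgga
Cyp1a2: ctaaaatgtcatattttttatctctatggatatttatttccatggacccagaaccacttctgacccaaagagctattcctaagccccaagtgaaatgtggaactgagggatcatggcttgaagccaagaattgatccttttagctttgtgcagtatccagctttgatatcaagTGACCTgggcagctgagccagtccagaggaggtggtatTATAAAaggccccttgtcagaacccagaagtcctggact
Cyp3a2: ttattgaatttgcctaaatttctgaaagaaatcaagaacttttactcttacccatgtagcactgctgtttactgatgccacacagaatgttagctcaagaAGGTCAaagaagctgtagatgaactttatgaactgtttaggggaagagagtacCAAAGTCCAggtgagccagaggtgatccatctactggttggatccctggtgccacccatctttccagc
Cyp3a23-3a1: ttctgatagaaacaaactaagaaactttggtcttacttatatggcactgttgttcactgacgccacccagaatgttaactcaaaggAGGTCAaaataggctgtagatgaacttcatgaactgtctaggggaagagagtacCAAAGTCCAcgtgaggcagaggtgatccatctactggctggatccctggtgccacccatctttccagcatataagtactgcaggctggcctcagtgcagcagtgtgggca
These lie at chr1:205269717-205269966 (plus strand), chr8:66978150-66978399 (minus), chr12:14343887-14344107 (minus) and chr12:14398804-14399053 (minus). Each of the 4 holds AGGTCA once. The Cyp3a2 and Cyp3a23-3a1 stretches were identical at 179 of 202 aligned bases (88.6%), and both hold CAAAGTCCA.

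The RefSeq table held upstream sequences for 30 of the 35 measured genes. It held none for Cyp1a1, Cyp2a2, Cyp2c6v1, Cyp2c37 and Cyp2c65, so the counts below do not cover these. The window counted was the 250 bases before the start used by that table. For Cyp3a2 it ran past the printed stretch of 221 bases into the annotated gene. AGGTCA or its reverse complement stood in 12 of the 30 genes (40%), against 14.1% of all 33469 promoters in the table. TATAAA stood in 11 of 30 (36.7%), against 12.9%. CAAAGTCCA stood in 2 of 30, Cyp3a2 and Cyp3a23-3a1, against 0.338%. GCGTG, the core of the element bound by AHR, stood in 4 of 30 (Cyp2r1, Cyp2t1, Cyp2u1 and Cyp2w1), against 25.9%. A match is a string of letters in this window and no evidence that a factor binds there.

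The share of spots with Cy5 well above background was 54.2% to 67.5% by array. The RNA of control 6 stood apart: its log ratios had an SD of 0.38, against 0.19 to 0.25 on the other 18 arrays, and its median over 8 measured lymphocyte markers was 2.83, against -1.38 to -1.06 in the other rats. The 8 hepatocyte markers were all measured, and none passed against control in either diet. In HP against HF, 2 of the 8 were called higher, against 3.63% of all features. The arrays lay on 5 slides of up to 4 arrays. HF rats shared 3 slides with control rats, HP rats shared 3, and HF and HP rats shared 1. In whole liver RNA, fewer cells of a type and less RNA per cell cannot be told apart.

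The high fat livers differed from control livers in 9 of the 35 P450 genes (adjusted p under 0.05 by limma), which is 25.7% of them, against 3.65% of all features. Of the 9 genes 7 rose and 2 fell, where 1.84% of all features were called higher and 1.81% lower. The risers were Cyp3a2, Cyp2e1, Cyp1a2, Cyp2j4, Cyp2c37, Cyp2c6v1 and Cyp3a62, and the genes that fell were Cyp2f4 and Cyp3a23-3a1. In 6 of the 9 (Cyp1a2, Cyp2e1, Cyp2f4, Cyp2j4, Cyp3a2 and Cyp3a62) no HF rat overlapped with any control rat, which held for 1.98% of all features. Over all 35 genes the median difference was 0.12, against -0.0084 over all features, and 28 differences lay above 0. Differences of more than 2-fold were seen for 4 of the 9, Cyp1a2, Cyp2e1, Cyp3a2 and Cyp3a62. Without control 6, the count was 8.

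High protein livers showed no called P450 gene among the 35, against 0.409% of all features, with a smallest adjusted p of 0.109. At an unadjusted p under 0.05, 6 genes were higher and 1 was lower, together 7 of 35, where 14.2% of all features reached this level. No gene separated every HP rat from every control rat (0.777% of all features did). The median difference was 0.11, against -0.0096 over all features, and 27 of 35 differences lay above 0. Both comparisons use the same 7 control rats, so they are not independent.

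**Figure D1:**
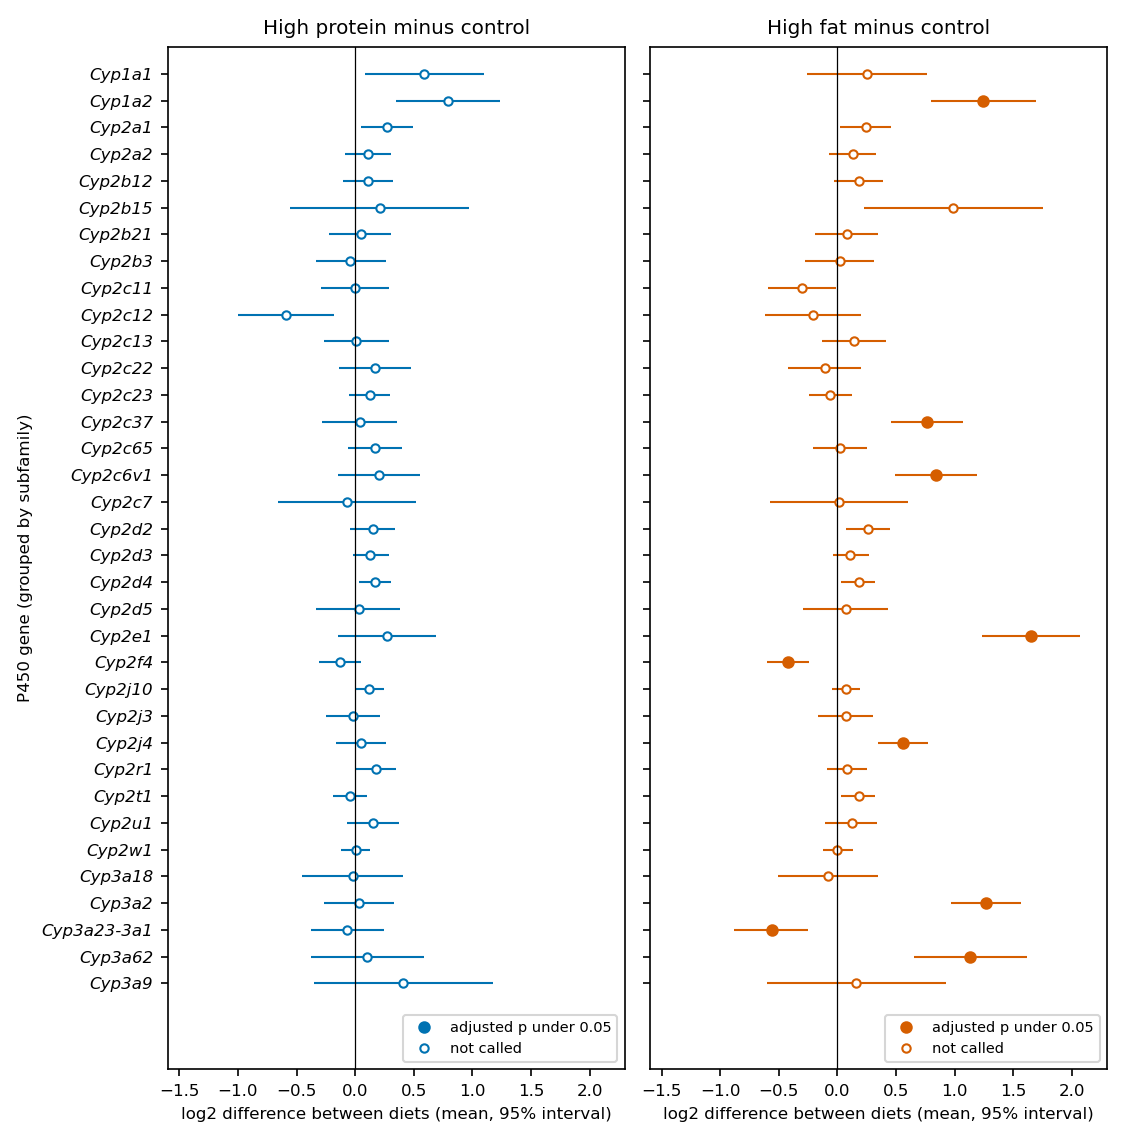
Log2 difference from control for each of the 35 measured P450 genes, in high protein (left) and high fat livers (right), as mean with its 95% interval from limma. Filled points passed an adjusted p of 0.05: there were 9 in the high fat comparison and 0 in the high protein one.

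The Cyp1 family holds the genes best known as AHR targets. Cyp1a2, which oxidises caffeine and aromatic amines, was the one called. Its level ran from -1.52 through a median of -0.86 to -0.05 in control rats, from -0.68 through -0.08 to 0.21 in HP rats, and from 0.12 through 0.27 to 0.74 in HF rats. Every HF rat lay above every control rat, while HP rats overlapped with both other groups. Cyp1a2 rose by 1.24 ± 0.21 in HF (log2, SE, n = 6 HF and 7 control, adjusted p = 0.00173), a 2.37-fold rise. The HP difference was 0.79 ± 0.21 (95% interval 0.35 to 1.24, adjusted p = 0.109). It passed without control 5 (0.94, adjusted p = 0.0454) and without control 7 (0.88, adjusted p = 0.0434), the control rats with the highest Cyp1a2 levels. Within the 3 slides that held HP and control rats the difference was 1.15, 0.00 and 1.62, so 1 of them showed none.

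A second Cyp1a2 probe ran from -1.81 through -1.13 to -0.03 in control, -0.58 through -0.03 to 0.29 in HP and -0.08 through 0.08 to 0.61 in HF. By this probe HF 2 and HF 5 lay just below control 5, so HF and control rats overlapped. It differed by 1.24 ± 0.24 in HF (adjusted p = 0.00483) and by 1.03 ± 0.24 in HP (adjusted p = 0.0649), with every kept probe tested on its own. The probe used for the gene lies at chr8:61439236-61439295 in build rn4, the build of the files. Cyp1a1, an enzyme that is low in liver unless induced, was above background on 3 of 7 control, 4 of 6 HP and 5 of 6 HF arrays. Its level ran from -0.57 through -0.40 to 0.01 in control, -0.39 through 0.02 to 1.17 in HP and -0.32 through -0.24 to 0.84 in HF. It differed by 0.59 ± 0.24 in HP (adjusted p = 0.271) and by 0.25 ± 0.24 in HF (adjusted p = 0.674). The higher HP mean came from HP 3 (1.17) and HP 5 (1.03), with the other HP rats between -0.39 and 0.27. Cyp1b1, expressed mainly outside hepatocytes, was above background on at most 1 of 19 arrays by either of its 2 probes and was not tested.

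Cyp2e1, which oxidises ethanol, acetone and other small molecules and is known to rise in fasting and ketosis, showed the largest difference of all 35 genes in HF. It was printed 10 times on each array, and these spots had a median SD of 0.05 within an array. Its level ran from -1.48 through -0.52 to -0.16 in control rats, from -0.77 through -0.60 to 0.10 in HP rats and from 0.67 through 0.86 to 1.34 in HF rats. HF rats overlapped with neither other group. Cyp2e1 rose by 1.65 ± 0.20 (95% interval 1.23 to 2.07, adjusted p = 1.52e-04), a 3.14-fold rise. On the 3 slides that held HF and control rats, the difference was 2.17, 1.83 and 2.01. In HP the difference was 0.27 ± 0.20 (95% interval -0.15 to 0.69, adjusted p = 0.564). Its probe lies at chr1:200927736-200927795 (rn4).

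**Figure D2:**
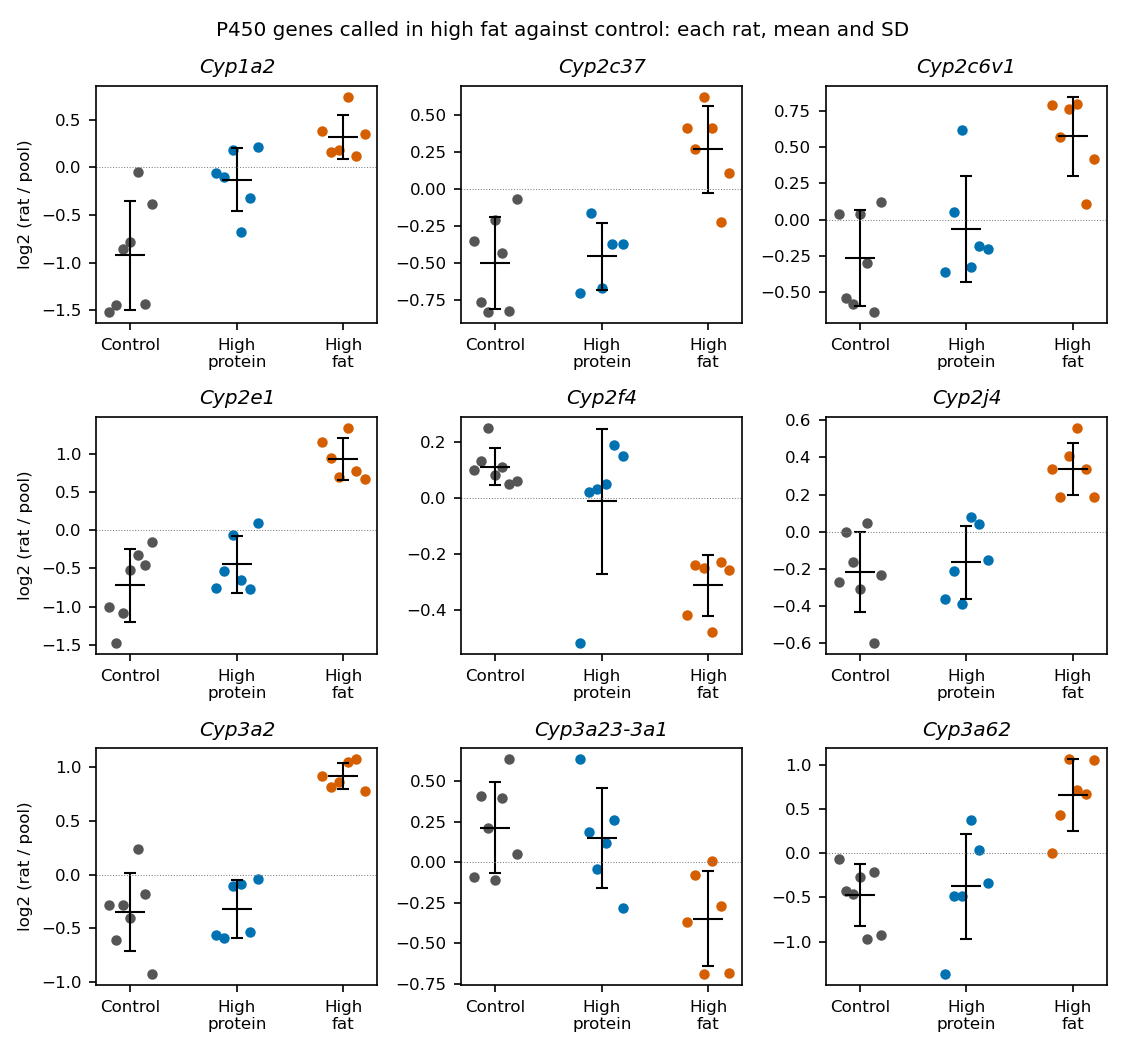
Log2 ratio of each rat to the liver pool for the 9 P450 genes called in high fat against control, with the mean and SD of each diet as black marks (7 control, 6 high protein and 6 high fat rats, and 5 high protein rats for Cyp2c37). The high fat rats lie apart from every control rat in 6 panels, and the high protein rats overlap with control rats in all 9.

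The Cyp3a genes encode enzymes that hydroxylate steroids and many drugs. They lie on chromosome 12, and close copies moved in different directions. Cyp3a2, a form typical of adult male rats, ran from -0.93 through -0.28 to 0.24 in control rats, from -0.59 through -0.33 to -0.04 in HP rats and from 0.78 through 0.89 to 1.08 in HF rats. The 6 HF rats lay close together and above every rat of both other groups. Cyp3a2 rose by 1.27 ± 0.14 (adjusted p = 6.41e-05), a 2.41-fold rise, with differences of 1.20, 1.35 and 1.25 within the 3 shared slides. The HP difference was 0.03 ± 0.14 (95% interval -0.27 to 0.33).

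Cyp3a23-3a1, known for its strong response to PXR ligands such as dexamethasone, fell. Its level ran from -0.11 through 0.21 to 0.64 in control rats, from -0.28 through 0.16 to 0.64 in HP rats and from -0.69 through -0.32 to 0.01 in HF rats. The HF rats reached lower than any control rat but overlapped with them. The difference was -0.56 ± 0.15 (adjusted p = 0.043). This call was lost in 17 of 31 other settings or omissions of 1 rat, with values from -0.64 to -0.46 and adjusted p up to 0.221, so the direction held and the call did not. The Cyp3a2 and Cyp3a23-3a1 probes lie at chr12:9517280-9517339 and chr12:9567010-9567069 (rn4).

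Cyp3a62, a further steroid-hydroxylating form, was the third Cyp3a gene called. Its level ran from -0.97 through -0.43 to -0.06 in control rats, from -1.37 through -0.41 to 0.38 in HP rats and from 0.00 through 0.69 to 1.07 in HF rats. HF and control rats met almost without a gap. It rose by 1.13 ± 0.23 (adjusted p = 0.00694), but on slide 1 the difference was 0.07, against 1.1 and 1.28 on the other shared slides. With slide as a fixed block it was 0.98 (adjusted p = 0.113). Cyp3a18 and Cyp3a9, known for male-biased and female-biased expression, differed in HF by -0.08 ± 0.20 and 0.16 ± 0.36 (adjusted p = 0.889 and 0.871). Cyp3a18 ran from -0.91 through 0.15 to 0.55 in control, -0.22 through -0.03 to 0.58 in HP and -0.73 through 0.09 to 0.36 in HF. Cyp3a9 ran from -1.05 through -0.38 to 0.32 in control, -0.70 through 0.06 to 1.01 in HP and -1.49 through -0.11 to 0.94 in HF. In both genes the 3 diets overlapped widely. Cyp3a9 varied most among the Cyp3a genes, from -1.49 in HF 2 to 1.01 in HP 1, with a pooled SD of 0.72 within diets.

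Within Cyp2c, the largest subfamily here with 9 genes, 2 rose in HF. Cyp2c6v1, a drug-metabolising form constitutive in both sexes, ran from -0.64 through -0.30 to 0.12 in control rats, from -0.36 through -0.19 to 0.62 in HP rats and from 0.11 through 0.66 to 0.80 in HF rats. HF 5, at 0.11, overlapped with control 7, at 0.12. Cyp2c6v1 rose by 0.84 ± 0.17 (adjusted p = 0.00573). The probe named Cyp2c37 in the files, a name with no match among the current rat symbols, ran from -0.83 through -0.43 to -0.07 in control rats and from -0.22 through 0.34 to 0.62 in HF rats. HF 5, at -0.22, lay within the control range. Cyp2c37 rose by 0.76 ± 0.15 (adjusted p = 0.0047), and this call was lost with Cy5 alone (adjusted p = 0.0695). Its HP group had 5 values, from -0.70 through -0.37 to -0.16, because the HP 3 spot was dropped.

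HF 5 and HF 6 were the lowest of the 6 HF rats for both of these probes. Whether they read the same transcripts was not tested. Cyp2c11, Cyp2c12 and Cyp2c13, known for their sex-dependent expression, did not pass in either comparison. Cyp2c11, the main male form, ran from 0.00 through 0.36 to 0.72 in control, -0.06 through 0.48 to 0.60 in HP and -0.20 through -0.04 to 0.59 in HF. It differed by -0.30 ± 0.14 in HF (95% interval -0.59 to -0.01, adjusted p = 0.296) and by 0.00 ± 0.14 in HP. Cyp2c12, the main female form, ran from -0.40 through 0.04 to 0.87 in control, -0.67 through -0.35 to -0.15 in HP and -0.31 through -0.11 to 0.80 in HF, and the diets overlapped. It differed by -0.21 ± 0.20 in HF (adjusted p = 0.666). In HP it differed by -0.59 ± 0.20 (adjusted p = 0.182), with every HP rat below 0. Cyp2c13, a male form, ran from -0.24 through 0.10 to 0.92 in control, 0.06 through 0.25 to 0.31 in HP and 0.10 through 0.37 to 0.46 in HF. It differed by 0.14 ± 0.13 in HF and 0.01 ± 0.13 in HP (5 HP values).

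The remaining Cyp2c genes overlapped between the 3 diets. Cyp2c7 ran from -0.36 through -0.03 to 1.1 in control, -0.73 through -0.06 to 1.15 in HP and -0.33 through 0.28 to 0.42 in HF. Cyp2c22 ran from -0.21 through 0.01 to 0.15 in control, -0.12 through 0.15 to 0.54 in HP and -0.66 through -0.13 to 0.46 in HF. Cyp2c23 ran from -0.12 through 0.00 to 0.14 in control, -0.14 through 0.17 to 0.36 in HP and -0.27 through -0.01 to 0.16 in HF, the narrowest span of these 3. In HF, Cyp2c7 differed by 0.01 ± 0.28, the retinoid-metabolising Cyp2c22 by -0.11 ± 0.15, the arachidonic acid epoxygenase Cyp2c23 by -0.06 ± 0.08 and Cyp2c65 by 0.02 ± 0.11. In HP these differences were -0.07, 0.17, 0.13 and 0.17. None of the 4 passed in either diet (smallest adjusted p 0.509). Cyp2c7 had 4 kept probes, whose HF differences lay between -0.02 and 0.03 and whose HP differences lay between -0.07 and 0.00. It varied widely between rats of a diet, from -0.73 in HP 1 to 1.15 in HP 3.

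**Figure D3:**
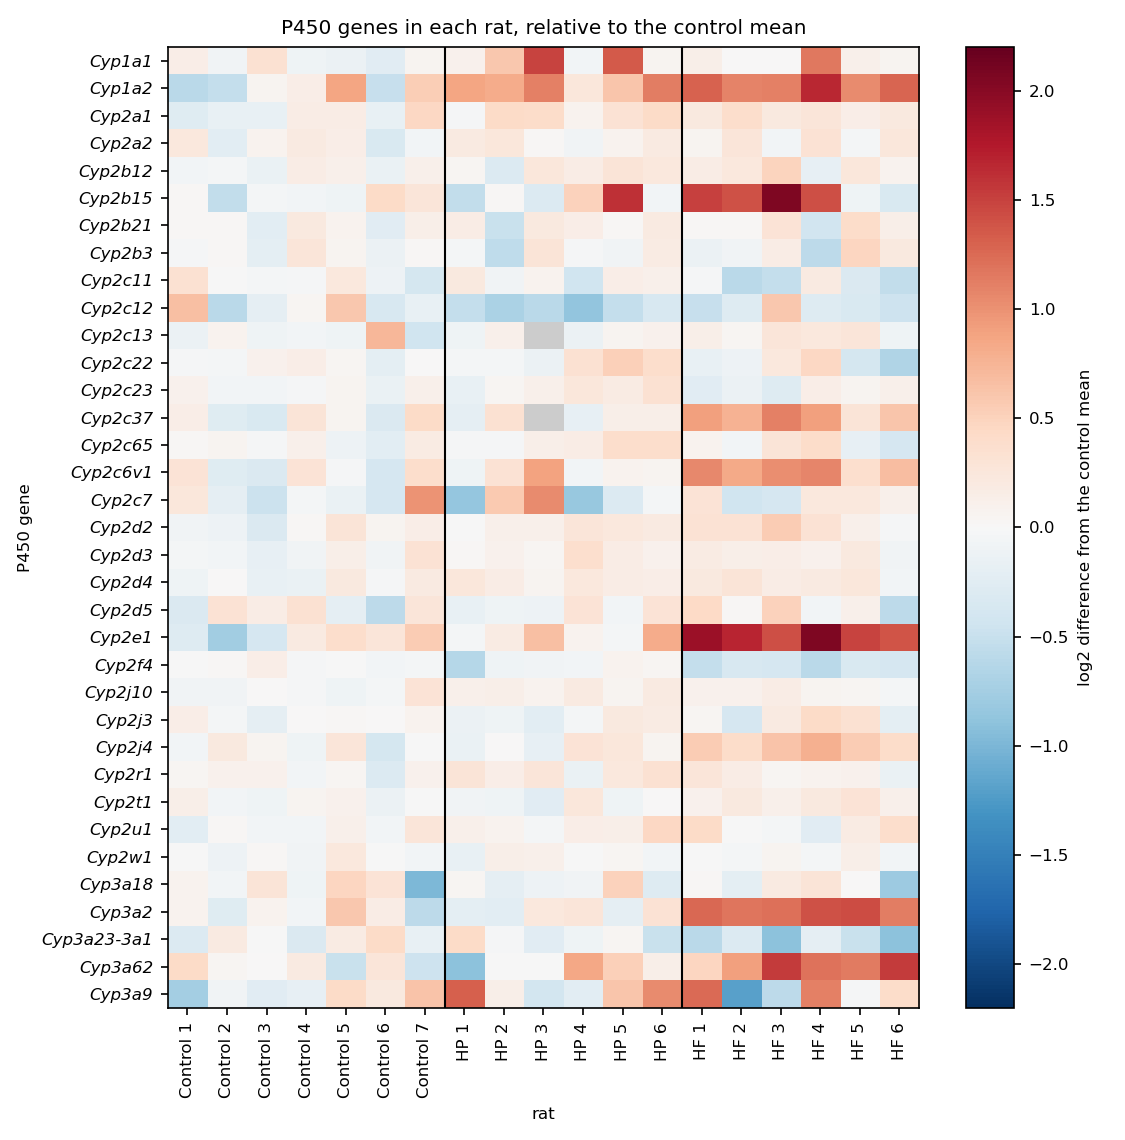
Each of the 35 measured P450 genes (rows) in each of the 19 rats (columns), as the log2 difference from the mean of the 7 control rats, with missing values in grey. The rows of Cyp2e1, Cyp3a2 and Cyp1a2 are red in all 6 high fat rats, and single rats stand out in Cyp1a1, Cyp2b15, Cyp2c7 and Cyp3a9.

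Of the 4 measured Cyp2b genes, Cyp2b3, Cyp2b12, Cyp2b15 and Cyp2b21, none passed in either comparison. This count leaves out the probes without a gene name that the files describe as CYP2B1 or CYP2B2, which are given below. Cyp2b15 had a pooled SD within diets of 0.72, the highest of the 35 genes together with Cyp3a9, and the other 3 had SDs of 0.19 to 0.27. The files also give the name Cyp2b15 to the probe that its accession assigns to Cyp2b12. The probe used here as Cyp2b15 is described in the files as CYP2B1. It lies at chr1:81283700-81283759 (rn4), between the Cyp2b3 and Cyp2b21 probes. The annotated Cyp2b15 gene lies beyond Cyp2b21 and Cyp2b12 (GRCr8), so which gene this probe reads is uncertain. Its level ran from -1.25 through -0.74 to -0.28 in control rats, from -1.25 through -0.73 to 0.91 in HP rats and from -1.04 through 0.70 to 1.35 in HF rats. HF rats 1 to 4 lay between 0.69 and 1.35, above every control rat, while HF 5 (-0.80) and HF 6 (-1.04) lay among the controls. HP 5, at 0.91, stood apart from the other HP rats. The HF difference of 0.99 ± 0.37 did not pass (95% interval 0.23 to 1.75, adjusted p = 0.168).

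The files describe 2 probes without a gene name as CYP2B2 and 2 as CYP2B1, and they differed within each pair. One CYP2B2 probe followed Cyp2b15 in which HF rats were low. In HF rats 1 to 4 it lay between 0.53 and 1.06, in HF 5 at -0.11, in HF 6 at -0.30 and in HP 5 at 0.44, with control rats between -0.47 and -0.23. Its HF difference was 0.78 ± 0.18 (adjusted p = 0.0191, every kept probe tested on its own), and it does not belong to the 46 by the rule. One CYP2B1 probe was also lowest in HF 6 (-0.69) and HF 5 (-0.45) among the HF rats and highest among the HP rats in HP 5 (0.59), and did not pass (0.45 ± 0.20, adjusted p = 0.293). The other CYP2B2 and CYP2B1 probes went another way, with HF 4 the lowest HF rat (-0.41 and -0.34) and HF 5 among the highest (0.30 and 0.32). Both differed by 0.25 ± 0.12 in HF and did not pass (adjusted p = 0.333 and 0.34). No probe carried the name Cyp2b1 or Cyp2b2.

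The probes of Cyp2b12, Cyp2b21 and Cyp2b3 followed another order, with HP 2 and HF 4 the lowest rat of their diet in all 3. HP 2 read -0.38, -0.49 and -0.56, and HF 4 read -0.25, -0.43 and -0.58. Their HF differences were 0.18 ± 0.10, 0.08 ± 0.13 and 0.02 ± 0.14, and none passed. Cyp2b3 ran from -0.22 through 0.01 to 0.26 in control, -0.56 through -0.05 to 0.27 in HP and -0.58 through 0.04 to 0.46 in HF. The files place all these named Cyp2b probes on chromosome 1, where the genes form a cluster of close copies. A second Cyp2b21 probe was not above background on any array. Cross-hybridisation between close copies is likely for this and the other large subfamilies and was not tested, so values of single genes in them are uncertain.

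**Figure D4:**
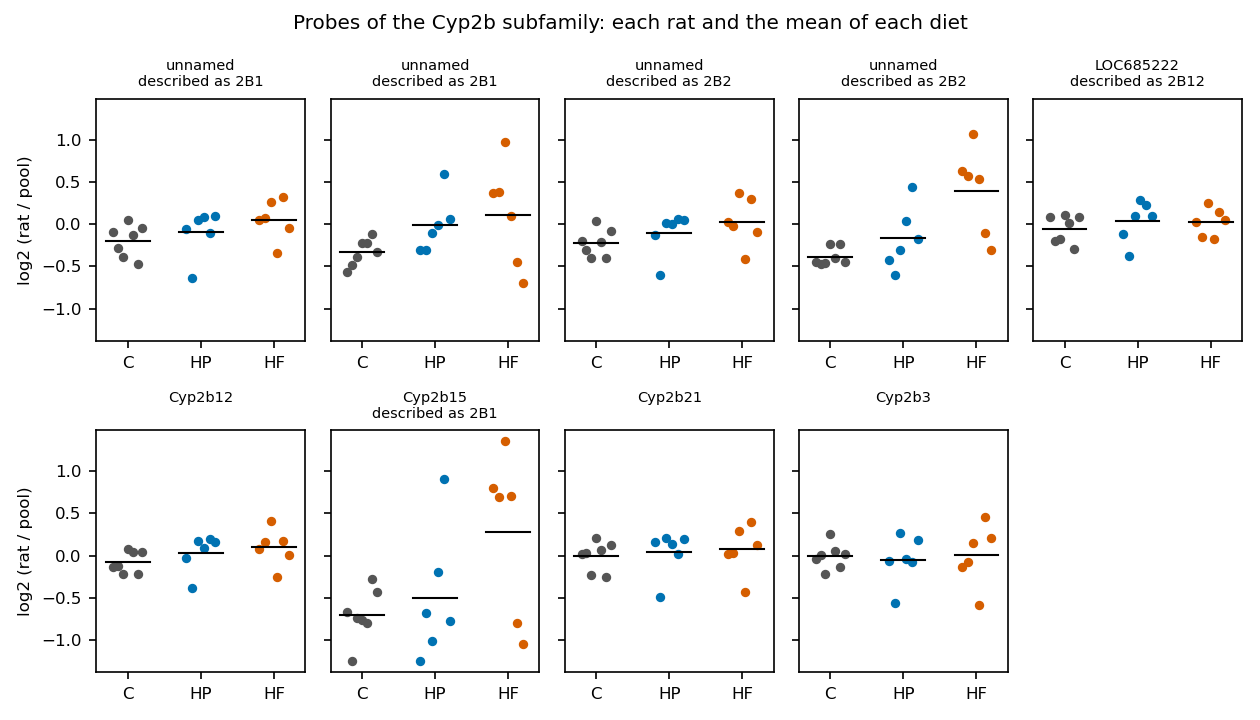
Log2 ratio of each rat to the liver pool for 9 Cyp2b probes (C, 7 control, HP and HF, 6 rats each), with the mean of each diet as a line. The upper row holds the probes outside the naming rule and the lower row the 4 named genes. High fat rats 5 and 6 fall below the others for Cyp2b15 and for one CYP2B1 and one CYP2B2 probe. High fat rat 4 is the lowest for Cyp2b12, Cyp2b21, Cyp2b3 and the other CYP2B1 and CYP2B2 probes.

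Among the other Cyp2 genes, Cyp2j4 rose and Cyp2f4 fell in HF. Cyp2j4, an epoxygenase of polyunsaturated fatty acids, ran from -0.60 through -0.23 to 0.05 in control rats, from -0.39 through -0.18 to 0.08 in HP rats and from 0.19 through 0.34 to 0.56 in HF rats. All 6 HF rats lay above all other rats. It rose by 0.56 ± 0.10 (adjusted p = 0.0025), a 1.47-fold rise. Cyp2j3, a relative, ran from -0.39 through -0.18 to -0.05 in control, -0.43 through -0.26 to 0.02 in HP and -0.56 through -0.07 to 0.23 in HF, with all diets overlapping. Cyp2j3 and Cyp2j10 differed by 0.07 ± 0.11 and 0.07 ± 0.06 in HF (adjusted p = 0.819 and 0.62). Cyp2j3 had a second kept probe with a difference of 0.11 ± 0.13.

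Cyp2f4, an enzyme known to oxidise naphthalene and styrene and a periportal gene in liver, ran from 0.05 through 0.10 to 0.25 in control rats, from -0.52 through 0.04 to 0.19 in HP rats and from -0.48 through -0.26 to -0.23 in HF rats. Every HF rat lay below every control rat. It fell by 0.42 on the log2 scale (SE 0.09, adjusted p = 0.00649), with -0.52, -0.35 and -0.57 within the 3 shared slides. The call was lost with the deposited log2 values and with Cy5 alone (adjusted p up to 0.104). HP 1, at -0.52, was the only HP rat below 0.02.

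The Cyp2a and Cyp2d genes lay slightly above control in both diets without passing. Cyp2a1 ran from -0.59 through -0.49 to 0.13 in control, -0.35 through 0.05 to 0.10 in HP and -0.18 through -0.11 to 0.06 in HF. Cyp2a2 ran from -0.41 through 0.00 to 0.15 in control, -0.15 through 0.06 to 0.18 in HP and -0.14 through 0.08 to 0.24 in HF. The diets overlapped in both. Cyp2a1 and Cyp2a2, testosterone hydroxylases, differed by 0.24 ± 0.10 and 0.13 ± 0.10 in HF and by 0.27 ± 0.10 and 0.11 ± 0.10 in HP. The 4 Cyp2d genes, which metabolise many basic drugs, differed by 0.07 to 0.26 in HF and by 0.03 to 0.17 in HP, with smallest adjusted p of 0.15 and 0.261. With slide as a fixed block, Cyp2d2 (0.42, adjusted p = 0.012) and Cyp2a1 (0.37, adjusted p = 0.0453) passed in HF. Cyp2d4 ran from -0.35 through -0.21 to 0.02 in control, -0.13 through -0.02 to 0.06 in HP and -0.25 through 0.02 to 0.09 in HF. It had 2 probes, with HF differences of 0.18 ± 0.07 and 0.12 ± 0.21. The probe used for Cyp2d5 also lists a Cyp2d1 transcript, and these copies cannot be told apart here.

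Cyp2r1, which activates vitamin D, Cyp2t1, Cyp2u1, a fatty acid hydroxylase, and Cyp2w1 differed in HF by 0.08 ± 0.08, 0.18 ± 0.07, 0.12 ± 0.11 and 0.00 ± 0.06. In HP these differences were 0.18, -0.04, 0.15 and 0.01. None passed in either comparison. Cyp2r1 ran from -0.37 through -0.03 to 0.03 in control, -0.22 through 0.18 to 0.26 in HP and -0.21 through 0.01 to 0.19 in HF. Cyp2u1 ran from -0.33 through -0.16 to 0.17 in control, -0.15 through 0.02 to 0.36 in HP and -0.35 through -0.02 to 0.32 in HF. The diets overlapped in both. The pooled SDs within diets of these 4 genes, 0.10 to 0.20, were at or below the median of 0.24 over the 35 genes. Cyp2w1 and Cyp2j10 were above background on only 12 of 19 arrays each. Cyp2a3 and Cyp2g1, known for expression in lung and nasal tissue, were not above background on any array.

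In the direct comparison of HP with HF livers, in which protein, fat and carbohydrate all differ, 7 of 35 P450 genes were called, against 7.02% of all features. Cyp2f4 was higher in HP and 6 genes were lower, where 3.63% of all features were called higher and 3.39% lower. The lower genes were Cyp2e1 (-1.38 ± 0.21, adjusted p = 3.29e-04), Cyp3a2 (-1.24 ± 0.15, adjusted p = 6.45e-05), Cyp3a62 (-1.03 ± 0.24, adjusted p = 0.0121), Cyp2c37 (-0.72 ± 0.16, adjusted p = 0.00917), Cyp2c6v1 (-0.64 ± 0.17, adjusted p = 0.0299) and Cyp2j4 (-0.50 ± 0.10, adjusted p = 0.00532). All HP rats lay below all HF rats for Cyp2e1, Cyp3a2 and Cyp2j4, and such a gap held for 4.98% of all features. Cyp1a2 was not called here (-0.45 ± 0.22, adjusted p = 0.264).

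The Cyp2c6v1 call was lost in 12 of 31 other settings or omissions of 1 rat, with differences from -0.87 to -0.32 and adjusted p up to 0.271. It was lost without HP 1, 4, 5 or 6 and without HF 1, 2, 3 or 4 (adjusted p up to 0.0704). The Cyp2f4 call, 0.30 ± 0.09 (adjusted p = 0.0487), was lost in 24 of 31 other settings or omissions. Without HP 1 the difference was 0.40 (adjusted p = 3.65e-04). HP and HF rats shared only slide 1. With slide as a fixed block 3 of the 7 calls stayed, Cyp2e1, Cyp3a2 and Cyp2c37. An F test over the 3 diets called 9 of 35 genes, against 6.56% of all features. These were the same 9 genes as in the HF comparison.

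Genes that serve or control the P450 enzymes were read from lists chosen with earlier results of these data known. Their counts stand beside 1.84% of all features called higher and 1.81% lower in HF, and 0.409% called in HP. Of 17 measured genes of electron supply and heme, 3 rose and 1 fell in HF. Por, the P450 reductase, rose by 0.82 ± 0.23 (adjusted p = 0.0499) and Cyb5a, a cytochrome b5, by 0.35 ± 0.09 (adjusted p = 0.0222). The Por call lay at the threshold, and its F test over the 3 diets did not pass (adjusted p = 0.0761). Alad, an enzyme of heme synthesis, rose by 0.36 ± 0.08 (adjusted p = 0.0094), and Pgrmc2, a heme-binding membrane protein, fell by 0.39 (adjusted p = 0.0105). Urod, a further enzyme of heme synthesis, differed by 0.16 ± 0.04 (adjusted p = 0.0538), and Hmox2, a heme oxygenase, by 0.19 ± 0.07 (adjusted p = 0.144). The list's median was 0.11 in both diets, and no member passed in HP.

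Of 23 measured receptors and liver factors, 1 rose and 1 fell in HF. Nr1i3, which encodes CAR, rose by 1.19 ± 0.22 (adjusted p = 0.00274), from a control mean of -0.66 to an HF mean of 0.53, with an HP mean of -0.55. Ghr, the growth hormone receptor, fell by 0.28 (SE 0.07, adjusted p = 0.0312). Nr1i2, which encodes PXR, differed by 0.33 ± 0.12 (adjusted p = 0.172), and the growth hormone signal carriers Stat5a and Stat5b by -0.50 ± 0.18 and -0.37 ± 0.11 (adjusted p = 0.161 and 0.0686). None of the 23 passed in HP, and the list medians were -0.03 in HF and -0.01 in HP.

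Genes other than P450 that are known for their expression around the central vein were read the same way. Of 15 measured, 6 rose and none fell in HF, against 1.84% of all features higher and 1.81% lower, with a median of 0.48 against -0.0084 over all features. They were the glutamate transporter Slc1a2 (1.41 ± 0.25), the dicarboxylate transporter Slc13a3 (1.13 ± 0.19), the ammonium transporter Rhbg (1.04 ± 0.22), glutamine synthetase Glul (0.70 ± 0.16), Rgn (0.69 ± 0.13) and Lect2 (0.48 ± 0.08), with adjusted p from 0.00103 to 0.0129. The median of the list in each rat lay between 0.13 and 0.26 in HF, between -0.43 and 0.03 in control and between -0.26 and -0.07 in HP. Its part in the P450 differences was not tested. In HP none of the 15 passed, and the median was 0.05.

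Of 17 measured periportal genes, none rose and 3 fell in HF (1.81% of all features fell), Gldc (-0.60 ± 0.11), Hsd17b13 (-0.45 ± 0.12) and Cyp2f4, itself a P450 gene. In HP, where 0.409% of all features were called, 5 rose and none fell: Sds, Hal, Gls2, Cps1 and the urea cycle gene Asl (0.97 ± 0.13). Pck1, Cdh1, Hsd17b13, Sfxn1, Ctsc, Igf1 and Cyp2f4 lay below control in HP without passing. The median difference of the periportal list was 0.07 in HP and 0 in HF, so the list did not move as a whole in either diet. Of 7 measured male-biased genes outside the P450 families, Sult1e1, estrogen sulfotransferase, rose in HF (0.86 ± 0.12, adjusted p = 5.53e-04), and no other passed. None of 7 measured female-biased genes passed in either diet. Markers of lymphocytes, macrophages, stellate cells, endothelium, bile ducts and red cells gave 40 measured genes. Of these, only Rgs5 and Reln passed in HF and only Rgs5 in HP, all higher. Both belong to the 9 measured stellate cell and fibroblast markers. Of all features, 1.84% were called higher in HF and 0.409% were called in HP. The lymphocyte markers had a median difference of -0.58 in HP and -0.56 in HF without passing, with control 6 at 2.83. The 3 red cell markers had a median of 0.14 in HP and 0.46 in HF.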

How the data were processed

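Per the labels, RNA of each liver was labelled with Cy5 and hybridised against a Cy3 pool. The deposited scanner files give each spot's signal and background as an intensity, and the submitters' processing notes name Agilent Feature Extraction 10.5.1.1. The authors also deposited a table of log2 values for 22764 features, whose scale and steps are not given in the sources used here. All 19 of its columns had a median of 8.20, and after centring of each feature they followed the log ratios computed here (r across features 0.911 to 0.976), so its direction is the same. It served as an alternative.

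Mean signals were corrected by normexp with an offset of 50 (40 spots on 5 arrays with background more than 50 above signal were dropped), and log ratios were normalised by loess within arrays in limma 3.58.1 (R 4.3.3). Outlier spots were dropped and spots of a probe averaged. A probe needed Cy5 well above background on 6 or more arrays, and among the probes of a gene the brightest on average stood for it. Names came through RefSeq accessions (10835 probes), symbols (5201), synonyms (3488) or the files alone (2874). A linear model over the 3 diets was tested with limma (16 residual and 3.24 prior degrees of freedom), two-sided, with Benjamini-Hochberg adjustment over 22020 features and a threshold of 0.05. Per the labels each array is a separate, single-housed rat, so p-values measure the spread between these rats. The linear model and its calls were tested on simulated log ratios, and the steps before the model were not simulated.

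The members and lists were chosen with earlier results of these data known. Values are given for every member called in a comparison and, called or not, for a list of well-studied members, with all their probes, and for the others by counts and range. Of the related lists, genes called against control and up to 4 others with the smallest p are named. The unnamed CYP2B1 and CYP2B2 probes were described after their values were seen. Cyp2c37 and Cyp2c13 had no value in HP 3. The number of arrays limits the precision. Replicate numbers did not pair rats: after group means were removed, like-numbered rats of different diets correlated at -0.01 on average over 18 pairs, and other pairs at 0.00121 over 102.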

Additional observations from a re-analysis of the deposited data

Results flagged for a closer look

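Within each diet, the highest and lowest rat of each gene was compared with the rest by Dixon's ratio, which marks about 1 in 20 groups by chance. Of 105 gene and diet combinations, 10 were marked, in 9 genes. The Cyp1a1 level of HF 4 was 0.84, against -0.32 to -0.19 in the other HF rats, and the Cyp2c12 level of HF 3 was 0.80, against -0.31 to -0.08. Cyp2b21 in HP 2 was -0.49 (others 0.02 to 0.21), and Cyp2d4 in HF 6 was -0.25 (others -0.02 to 0.09). Cyp2f4 was marked in 2 groups: control 3 at 0.25 (others 0.05 to 0.13) and HP 1 at -0.52 (others 0.02 to 0.19).

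Control 7 was marked for Cyp2j10 at 0.26 (others -0.14 to -0.03) and for Cyp3a18 at -0.91 (others -0.03 to 0.55). Cyp2r1 in control 6 was -0.37 (others -0.13 to 0.03), and Cyp2w1 in control 5 was 0.24 (others -0.09 to 0.04).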

How the results depend on the processing

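Each result was recomputed under 31 alternatives, 19 of them leaving out 1 rat. All differences of called genes kept their direction. The count of P450 genes called in HF against control lay between 6 and 9, and in omissions of 1 rat between 8 and 9. In HP against control it was 0 except for 1 with array weights and between 0 and 2 in omissions of 1 rat (without control 5 and without control 7 it was 1 and 2, with Cyp1a2 in both and Cyp2j10 at 0.17, adjusted p = 0.049, in the second). In HP against HF it was 7 and moved by over 1.5 times in 3 settings: 4 with the deposited log2 values, 4 with Cy5 alone and 3 with slide as a fixed block. It lay between 5 and 9 in the other settings and in omissions. By the F test it was 9 and moved by over 1.5 times in 1 setting, to 5 with Cy5 alone, and it lay between 8 and 10 in the other settings and between 8 and 11 in omissions. The cause of these shifts was not tested. The median difference over the P450 genes lay between 0.09 and 0.19 in HF, between 0.07 and 0.17 in HP and between -0.11 and 0.03 for HP against HF.

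Cyp1a2, Cyp2c6v1, Cyp2e1, Cyp2j4 and Cyp3a2 kept their HF call in all 31 alternatives, as did Cyp2e1 and Cyp3a2 in HP against HF. Cyp2c37 and Cyp3a62 kept theirs in 30, Cyp2f4 in 29 and Cyp3a23-3a1 in 14. In HP against HF, Cyp2c6v1 kept its call in 19 and Cyp2f4 in 7. With the replicate block, which the pairing check did not bear out, the counts were 0, 8, 7 and 8, and Cyp3a23-3a1 was lost in HF (adjusted p = 0.0837). Genes dim in Cy5, such as Cyp1a1, Cyp2j10 and Cyp2w1, rest on signals near background.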
